A study of Drosophila melanogaster with 4 samples.

Results

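The gene described here is comm2 (FBgn0041160), a member of the commissureless family of Drosophila, 1 gene of the 2049 listed in the deposited count table. It was taken by its symbol, and it was selected on its counts in KRB and Schneider's medium in these same libraries, so its own values are given as a description with no test. The study incubated S2 cells, an established hemocyte-like line derived from Drosophila embryos, for 4 h in Krebs Ringer bicarbonate buffer (KRB), which lacks amino acids and serum and holds more sodium, or for 4 h in Schneider's medium with serum, in which they grow. Both groups are the same line with no genetic change, and total RNA, with ribosomal RNA removed, was sequenced from 2 biological replicates each. The 4 libraries are KRB replicates 1 and 2 and Schneider's replicates 1 and 2. Absent amino acids, absent serum and higher sodium cannot be told apart in this design.

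In the embryonic nerve cord of Drosophila, glia at the midline secrete Slit, which repels axons that carry Robo receptors on their surface. Commissureless (comm), a small transmembrane protein, sorts Robo1 from the secretory pathway toward endosomes and lysosomes, which lets commissural axons cross the midline. The netrin receptor Frazzled promotes comm transcription in commissural neurons, and the HECT ubiquitin ligase Nedd4 binds Comm. Both comm2 and comm3 are relatives of comm that lie beside it in the genome, and S2 cells are not neurons.

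On chromosome 3L of the BDGP6 assembly, comm2 spans 15697594 to 15699850 on the minus strand. The annotation gives it 1 transcript with 2 exons, 1516 bp of exon in all and an intron of 741 bp. No other annotated gene overlaps it on either strand, so reads on the locus have no second annotated gene to belong to. The nearest annotated gene, CG34451, lies 5.53 kb away. Within the family, comm (FBgn0010105) lies 21.7 kb from comm2, at 15721511 to 15728430, and comm3 (FBgn0259236) lies 49.8 kb away on the other side, at 15613184 to 15647762. All 3 genes are on the minus strand. The introns of comm3 hold 2 other genes on the opposite strand, Phs and lncRNA:CR45977, with 0 bp of exon shared. Reads that the counting could have shared between the related family members were not checked.

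The table is a selection of genes with a difference between the media. No tested gene had a log2 fold change between -0.84, the smallest fall, and 1.15, the smallest rise. Its counts summed to 1957713 and 2801713 reads in KRB and to 1108029 and 2414465 reads in Schneider's medium, so that the full depth of each library is unknown here. With edgeR's TMM scaling, 742 of 1756 tested genes (42.3%) were higher and 942 (53.6%) were lower in KRB at an adjusted p under 0.05, from the quasi-likelihood F-test of edgeR and Benjamini-Hochberg adjustment. That split depended on the scaling: total counts gave 335 higher and 1004 lower genes, upper-quartile factors 748 and 547, relative log expression factors 749 and 178, and DESeq2 734 and 89. A normalized count here is a count scaled by TMM to a library of the geometric mean size. With 2 libraries per medium, an exact two-sided permutation of a single gene cannot give a p below 0.333.

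Few reads of comm2 were present in Schneider's medium and many in KRB. KRB replicates 1 and 2 held 763 and 730 reads, against 36 and 59 reads in Schneider's replicates 1 and 2. The 2 KRB counts were each above either Schneider's count, as the choice of this gene implies. By any margin, this was so for 42.5% of the tested genes. As normalized counts these were 1032 and 743 in KRB, against 44.0 and 35.1 in Schneider's medium. The means were 888 ± 205 in KRB and 39.5 ± 6.27 in Schneider's medium (SD, n = 2 each). The fitted log2 fold change was 4.51 (standard error, SE, 0.27), which is 22.7-fold. The lowest KRB library was 16.9 times the highest Schneider's library, and the highest KRB library was 29.4 times the lowest Schneider's library. Bulk RNA does not tell more cells with this RNA from more of it per cell. Scaled counts give a share of the RNA sequenced, not an amount per cell. The paper describes a general fall of RNA levels in KRB, and whether comm2 RNA rose in amount was not tested.

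As a share of the reads on listed genes, comm2 took 390 per 1000000 in KRB replicate 1 (95% exact Clopper-Pearson interval 363 to 418) and 261 in KRB replicate 2 (242 to 280). In Schneider's medium it took 32.5 per 1000000 in replicate 1 (22.8 to 45.0) and 24.4 in replicate 2 (18.6 to 31.5). The intervals of the KRB libraries do not meet those of the Schneider's libraries, and those of the KRB replicates do not meet each other. The pooled ratio of reads per library size had a counting interval of 18.5 to 28.4 around 22.8. Such intervals cover counting error only, not the spread between libraries. They also treat reads as independent, though amplified reads are not independent molecules.

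Between the replicates of one medium, comm2 differed more in KRB than in Schneider's medium. KRB replicate 1 was 1.39 times KRB replicate 2, a gap of 0.47 on the log2(normalized count + 1) scale, against 0.25 for the median tested gene, and 27.4% of the tested genes had a larger gap. Schneider's replicate 1 was 1.25 times Schneider's replicate 2, a gap of 0.32 against 0.30 for the median tested gene, and 48.0% of the tested genes had a larger gap. On the log2 scale the SD between replicates was 0.34 in KRB and 0.23 in Schneider's medium.

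**Figure D1:**
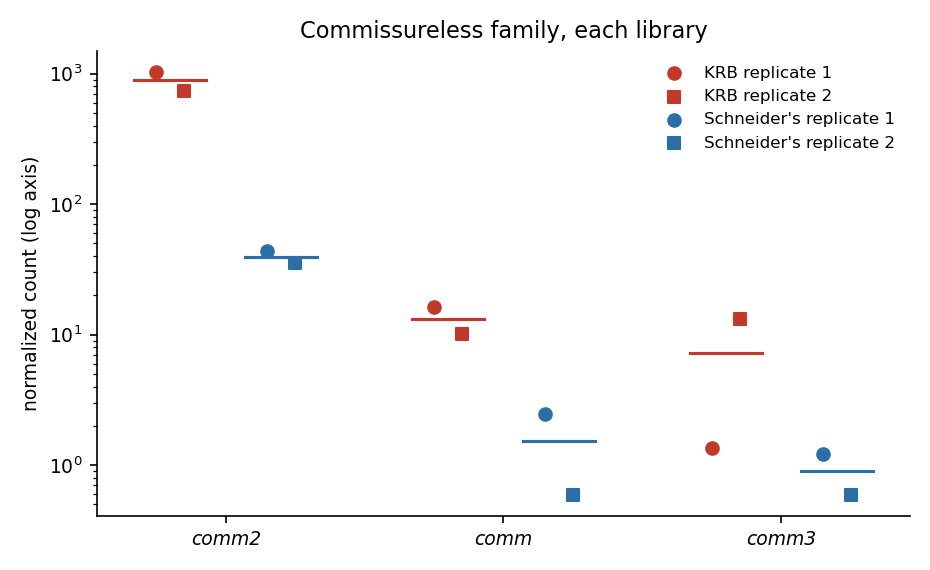
Normalized counts (log axis) of the 3 commissureless family genes in each library, with KRB in red and Schneider's medium in blue, replicate 1 as circles, replicate 2 as squares and the mean of each medium as a line. The comm2 values of 1032 and 743 in KRB stand above 44.0 and 35.1 in Schneider's medium, while the highest library of comm or comm3 is at 16.2.

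Both relatives of comm2 are listed too, at much lower counts. For comm, the founding member of the family, 12 and 10 reads were counted in KRB, against 2 and 1 reads in Schneider's medium. Both KRB libraries were above both Schneider's libraries, at 16.2 and 10.2 normalized counts against 2.44 and 0.59. With 3 reads in Schneider's medium in all, the ratio was 10.6 with a counting interval of 3.20 to 55.6. It was 21.5 without Schneider's replicate 1 and 5.23 without Schneider's replicate 2. For comm3, 1 and 13 reads were counted in KRB, against 1 and 1 reads in Schneider's medium. Only KRB replicate 2 stood apart, since KRB replicate 1 held 1 read, as the Schneider's libraries did. The ratio of comm3 was 10.2 with a counting interval of 2.33 to 92.2, and without KRB replicate 2 it was 1.69 with an interval of 0.029 to 32.5.

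The filter on low counts removed both comm and comm3 from the test. With no filter, the log2 fold change was 3.10 for comm and 2.93 for comm3, and no test is given for them. These values rest on 3 and 2 reads in Schneider's medium. With single libraries left out, both genes passed the default filter in some runs. The log2 fold change of comm was then 3.59 without KRB replicate 2, 4.07 without Schneider's replicate 1 and 2.19 without Schneider's replicate 2. That of comm3 was 4.06 without KRB replicate 1 and 3.35 without Schneider's replicate 1. Reads of comm2 made up most of the reads on the family in each library. Its share was 98.3% of 776 family reads in KRB replicate 1 and 96.9% of 753 in KRB replicate 2. It was 92.3% of 39 family reads in Schneider's replicate 1 and 96.7% of 61 in Schneider's replicate 2. The exact Clopper-Pearson intervals of these shares overlap between the media, at 97.2% to 99.1% and 95.5% to 98.1% in KRB against 79.1% to 98.4% and 88.7% to 99.6% in Schneider's medium. Per kb of exon, the mean normalized count of comm2 was 585 in KRB and 26.1 in Schneider's medium, that of comm 5.29 and 0.61, and that of comm3 2.79 and 0.35.

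Among the listed genes, comm2 changed place between the media. Its level per kb of exon was above that of 89.5% of the 2036 genes with a known exon length in KRB, and above that of 40.6% of them in Schneider's medium. The median gene had 47.7 normalized counts per kb in KRB and 55.9 in Schneider's medium. By log2 fold change comm2 was number 39 of 1756 tested genes, counted from the largest rise. Most genes with larger rises had few reads: of the 421 tested genes with a mean normalized count at least that of comm2 (464), only CG7142 and CG44251 had larger ones. CG7142, named after its values were seen, had a log2 fold change of 7.22 (SE 0.26). The genes next to comm2 in this order were CG43638 (4.55, SE 0.73) and CG44251 (4.51, SE 0.39) above it and CG13611 (4.48, SE 0.54) and CR46031 (4.44, SE 0.48) below it. Each of these 4 lay within its SE of comm2. A further 227 listed genes with more normalized reads in KRB were outside the test and have no place in the order.

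**Figure D2:**
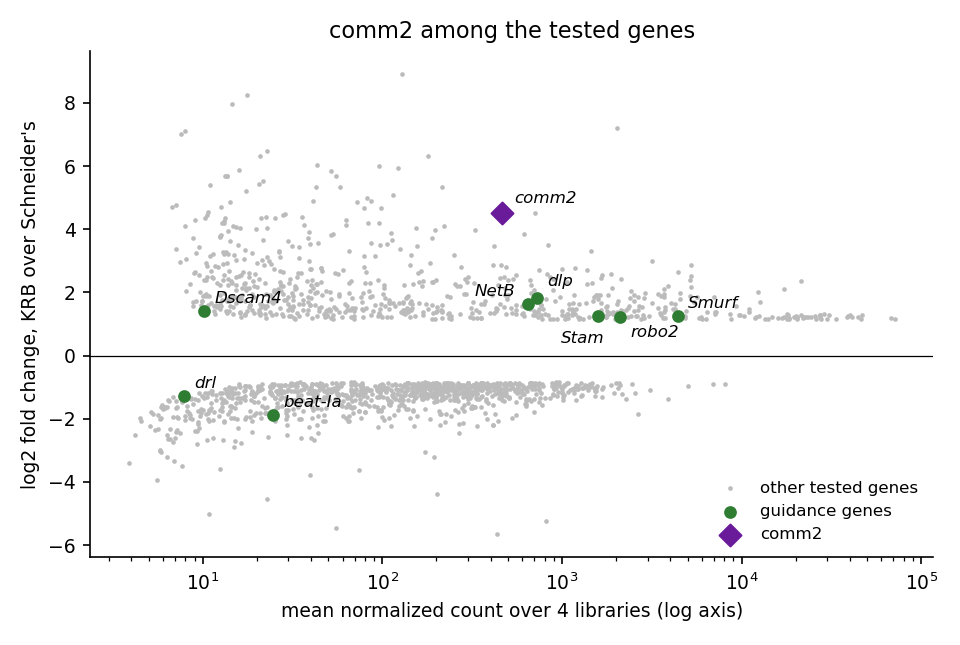
Log2 fold change, KRB over Schneider's, against the mean normalized count over the 4 libraries (log axis), with comm2 as a purple diamond, the listed guidance genes in green and the other tested genes in grey. At 4.51, comm2 stands above the guidance genes, which lie between -1.88 and 1.82, and the empty band around 0 shows that the table is a selection.

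The size of the rise rested on the scaling of the libraries, and its place among the genes moved most with the filter and the libraries used. The log2 fold change was 3.54 with total counts, 4.96 with upper-quartile factors and 5.24 both with relative log expression factors and in DESeq2, which is 11.6-fold to 37.9-fold. In the same order, these settings moved the median gene by -0.97, 0.46, 0.74 and 0.74 on the log2 scale. After subtraction of that shift, comm2 had 4.51, 4.50, 4.50 and 4.50. By construction a scaling shifts all genes nearly alike, so this value and the place of comm2 could hardly change under it. It was number 39, 38, 38 and 47 among the tested genes under them. With no filter on low counts it was number 107 of 2049. When single libraries were left out, its log2 fold change ran between 4.17 and 4.71 and its place between 33 and 67.

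**Figure D3:**
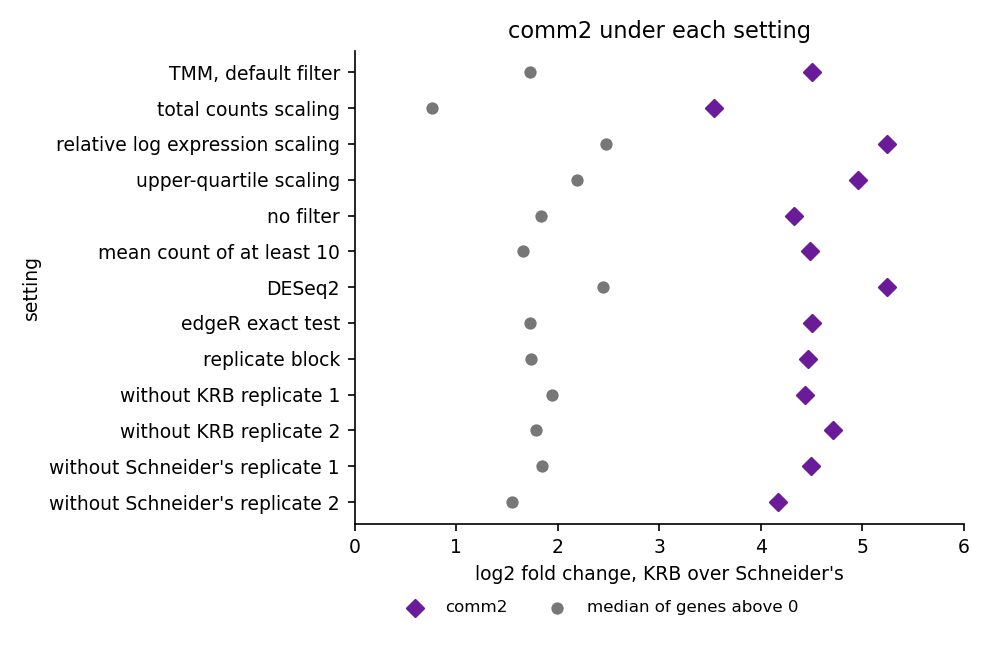
Log2 fold change, KRB over Schneider's, of comm2 (purple diamonds) and the median over all genes above 0 (grey points) under each setting. The value of comm2 runs between 3.54 and 5.24, and the median moves in step with it under the scalings, between 0.76 and 2.47.

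Most listed genes of midline guidance and of Robo sorting were higher in KRB, with log2 fold changes of 1.24 to 1.82, against 4.51 for comm2. Over all tested genes above 0, the smallest rise was 1.15 and the median rise 1.72. Of 92 genes of this pathway and of other guidance systems besides comm2, 10 were listed and 8 were tested. Of all annotated genes 8.39% were listed, the share to set beside this count and those of the lists below. The other guidance systems made up 48 of the 92, and Dscam4, beat-Ia and drl among the 8. In the edgeR quasi-likelihood test, 6 of the 8 were higher and 1 was lower in KRB at an adjusted p under 0.05, against 42.3% higher and 53.6% lower over all tested genes. Their median log2 fold change was 1.24, against -0.92 over all tested genes. The listing itself rests on the same 4 libraries, so these counts are not independent evidence. Dscam4, among the 6, passed the filter on low counts only through the KRB libraries, and drl only through the Schneider's libraries. No test is given for these 2 genes below, and their calls lend these counts no support. With total counts only 1 of the 8, dlp, was higher and 2, beat-Ia and drl, were lower.

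Of the Slit and Robo list, 2 of 19 genes were listed, and both rose in KRB. robo2, a Slit receptor of the Robo family (2L, 1380086 to 1420453), had 2672 and 2258 reads in KRB, against 1287 and 1587 in Schneider's medium. As normalized counts these were 3615 and 2298 in KRB, against 1572 and 944 in Schneider's medium, without overlap. The log2 fold change was 1.24 (SE 0.32, edgeR adjusted p = 0.0104), with an adjusted p of 0.0622 without KRB replicate 1 and 0.0570 without Schneider's replicate 2. dlp, a cell-surface heparan sulfate proteoglycan (3L, 14632601 to 14671609), had 808 and 1141 reads in KRB, against 248 and 564 in Schneider's medium. Its normalized counts were 1093 and 1161 in KRB, against 303 and 335 in Schneider's medium, the tightest replicates among the guidance genes in KRB. dlp rose by a log2 fold change of 1.82 (SE 0.16, edgeR adjusted p = 0.000784). The genes of Slit itself, Robo1 and Robo3 are not analysed here.

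Of the netrin list, 1 of 10 genes was listed. NetB, a secreted netrin and ligand of Frazzled (X, 14686038 to 14749376), had 588 and 1147 reads in KRB, against 162 and 732 in Schneider's medium. Its normalized counts were 796 and 1167 in KRB, against 198 and 435 in Schneider's medium. The groups did not overlap, but the Schneider's replicates lay 2.20-fold apart. NetB rose by a log2 fold change of 1.62 (SE 0.39, edgeR adjusted p = 0.00817), and the adjusted p was 0.0606 without KRB replicate 2.

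Of the genes for ubiquitin ligases, endosomes and lysosomes, 2 of 13 were listed, and both rose. Smurf, a HECT ubiquitin ligase of the Nedd4 family known for its part in Dpp signalling (2R, 17592791 to 17604461), had 5720 and 6645 normalized counts in KRB, against 2512 and 2727 in Schneider's medium. Smurf rose by a log2 fold change of 1.24 (SE 0.16, edgeR adjusted p = 0.00150). Stam, a part of the complex that sorts ubiquitinated membrane proteins at endosomes (2L, 10858536 to 10862006), had 2335 and 2128 normalized counts in KRB, against 1043 and 836 in Schneider's medium. Stam rose by a log2 fold change of 1.25 (SE 0.17, edgeR adjusted p = 0.00172). Both kept an adjusted p under 0.05 whichever library was left out and lost it with total counts. Nedd4 is not analysed here.

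Of 48 genes of other guidance systems, 3 were listed, all with few reads. Dscam4, of the Dscam family of cell-surface immunoglobulin proteins, had 10 and 16 reads in KRB, against 4 and 10 in Schneider's medium. Its log2 fold change was 1.42 (SE 0.39). Dscam4 passed the filter only through the KRB libraries, so no test is given for it. beat-Ia, a secreted protein that lets motor axons leave their bundle, had 6 and 13 reads in KRB, against 14 and 101 in Schneider's medium, and a log2 fold change of -1.88 (SE 0.67, edgeR adjusted p = 0.0326). Its Schneider's replicates lay 3.51-fold apart. When single libraries were left out, the log2 fold change of beat-Ia ran from -2.61 to -0.80. With relative log expression factors and all libraries, the edgeR adjusted p of beat-Ia was 0.191. drl, a Wnt5 receptor, had 1 and 7 reads in KRB, against 10 and 18 in Schneider's medium, and a log2 fold change of -1.28 (SE 0.61). It passed the filter only through the Schneider's libraries, so no test is given for it. Without KRB replicate 2 the log2 fold change of drl was -2.97.

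The rise of comm2 moved its place in the order of levels per kb among these genes. In KRB it had 681 and 490 normalized counts per kb, next to robo2 with 583 and 370, which overlaps it, and below Stam with 818 and 746, which does not. In Schneider's medium it had 29.0 and 23.1 normalized counts per kb, next to NetB with 24.2 and 53.3, which overlaps it, and below dlp with 80.5 and 89.2 and robo2 with 253 and 152. It stood above beat-Ia, with 5.96 and 20.9, in Schneider's medium.

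**Figure D4:**
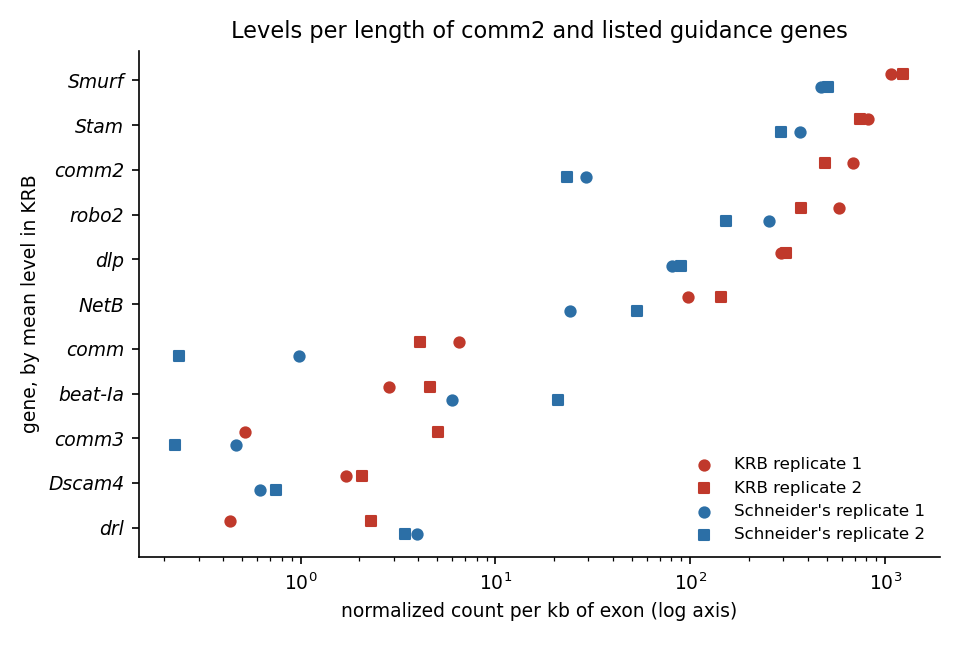
Normalized count per kb of exon (log axis) of comm2 and the 10 other listed guidance genes, in order of their level in KRB, with KRB in red, Schneider's medium in blue, replicate 1 as circles and replicate 2 as squares. In KRB comm2 lies at 681 and 490, beside robo2, and in Schneider's medium at 29.0 and 23.1, beside NetB.

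Of the 30 other genes annotated within 100 kb of comm2, 4 were listed, 2 of them tested. Besides comm and comm3 these included CG13449. CG13449 (15610631 to 15612828, 84.8 kb from comm2) had 12 and 31 reads in KRB, against 2 and 0 in Schneider's medium. These few reads passed the filter only through the KRB libraries, so no test is given for it. The genes between comm2 and its 2 relatives, among them the Eig71E cluster, are not analysed here. Listed genes made up 13.3% of the genes in this window and 8.39% of all 24254 annotated genes.

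The genes with the profile most like that of comm2 were sought over the 4 libraries, as the distance between log2(normalized count + 1) values centred on each gene's mean, among the 630 listed genes with at least 0.5 times its mean normalized count. The nearest was fa2h, a fatty acid hydroxylase gene (2R, 7446189 to 7451553), at a distance of 0.63. It had 659 and 574 normalized counts in KRB, against 51.3 and 29.7 in Schneider's medium. CG44251 (2R, 12948348 to 12952293) followed at 0.81, with 1214 and 1497 normalized counts in KRB, against 85.5 and 38.1 in Schneider's medium. The third was nkd, an inhibitor of Wingless signalling (3L, 19003741 to 19045449), at 0.98, with 1638 and 1434 normalized counts in KRB, against 161 and 114 in Schneider's medium. CG32181 (3L, 17759697 to 17762904) stood at 1.20 and Rcd2 (3L, 20527972 to 20540417) at 1.27, against 1.36 for the next gene and 5.33 for the median gene searched. With 4 libraries in 2 media, the data leave little besides the size of the rise to set genes apart. The log2 fold changes were 3.97 for fa2h, 4.51 for CG44251, 3.49 for nkd, 3.47 for CG32181 and 3.32 for Rcd2.

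**Figure D5:**
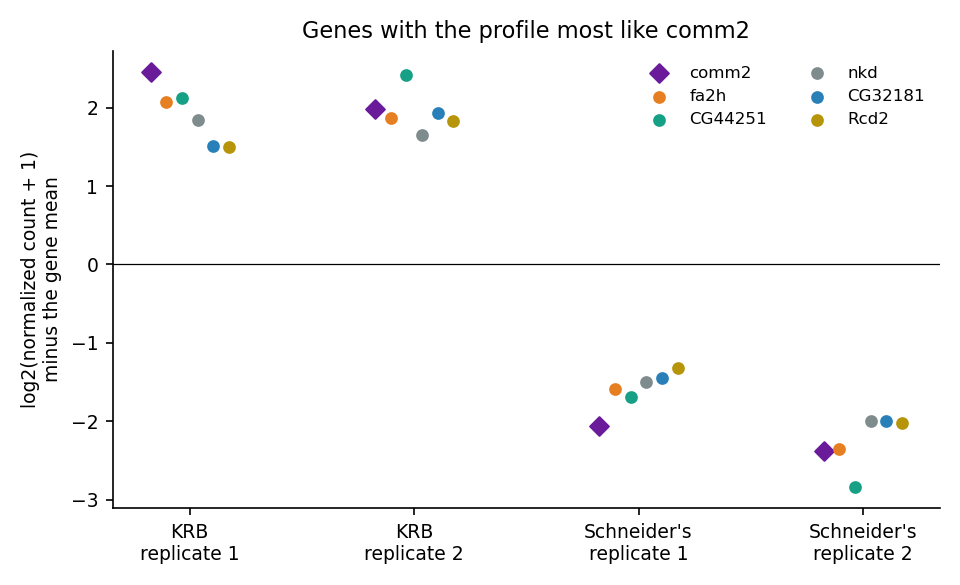
Log2(normalized count + 1) minus the gene's mean over the 4 libraries, for comm2 (purple diamonds) and the 5 genes nearest to it, in each library. All 6 genes lie above 0 in both KRB libraries and below 0 in both Schneider's libraries, and comm2 has the highest value, 2.46, in KRB replicate 1.

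The few listed markers of cell types moved in both directions. Of 11 hemocyte markers 2 were listed, eater, a phagocytic receptor, with 503 and 273 normalized counts in KRB, against 1200 and 818 in Schneider's medium, and Ppn, a matrix protein, with 195 and 138 in KRB, against 531 and 332 in Schneider's medium. Both fell in KRB, with log2 fold changes of -1.38 (adjusted p = 0.00831) and -1.37 (adjusted p = 0.00580, edgeR's quasi-likelihood test for both). Of 10 neuron markers only brp was listed, with 17 and 10 reads in KRB, against 7 and 3 in Schneider's medium. It was higher in KRB (log2 fold change 1.89, SE 0.76, edgeR adjusted p = 0.0479). The Schneider's replicates of brp lay 4.79-fold apart, and its lowest KRB library was only 1.19 times its highest Schneider's library. Of 6 glia markers only Eaat1 was listed, with 7 and 12 reads in KRB, against 12 and 138 in Schneider's medium (log2 fold change -2.20, SE 0.82). Eaat1 passed the filter only through the Schneider's libraries, so no test is given for it. The defining markers srp and Hml of hemocytes, elav of neurons and repo of glia are not analysed here. The part of other cells in the comm2 values was not tested.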

How the data were processed

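Reads of the 4 libraries (TruSeq Stranded Total RNA kit after RiboZero) were mapped by the authors with STAR 2.4.0.1 to Dm6 and counted per transcript with a Python script and pysam. Whether the counting used strand is not given in the sources used here. The authors deposited raw counts per gene symbol. They also deposited a log2 fold change and a p-value per gene from edgeR 3.24.3, which were not used here.

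The media were compared in edgeR 4.0.16 (R 4.3.3), using filterByExpr at default settings, TMM, glmQLFit and glmQLFTest (two-sided, with a term for the medium) and Benjamini-Hochberg adjustment across 1756 genes. The standard error is the log2 fold change divided by the square root of F. The p-values rest on the spread between 2 libraries per medium. For each gene, edgeR moderates that spread with the spread of the other tested genes, which are themselves a selection. Replicates differed beyond counting noise (chi-square per degree of freedom 16.9 in KRB and 27.7 in Schneider's medium). The alternatives were other scalings and filters, edgeR's exact test, DESeq2 1.42.0, a replicate block and leaving out each library.

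The gene, the lists and the tests were chosen with earlier results of these data known. Named genes were comm2, its family and pathway lists, the 5 most similar profiles, listed genes within 100 kb (1 of them is not reported here), and the 2 genes on either side in the order of fold changes. The count of guidance genes leaves out comm2. Coordinates and exon lengths are from BDGP6, release 115, the assembly of Dm6, in which 2036 of 2049 symbols were matched. Scripts were tested on simulated counts. Intervals, distances and figures were made in Python 3.11.15 with scipy 1.17.1, matplotlib 3.10.9, numpy 2.4.6 and pandas 2.3.3.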

Additional observations from a re-analysis of the deposited data

How the results depend on the processing

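The log2 fold change of comm2 was 4.51 and stayed above 0 under each alternative tried. It was 3.54 with total counts, 5.24 with relative log expression factors, 4.96 with upper-quartile factors and 5.24 with DESeq2, and 4.17 to 4.71 when single libraries were left out. Of the guidance genes besides comm2, 6 were higher and 1 lower. Total counts gave 1 higher and 2 lower. Dscam4, among the 6, and drl, among the 2, passed the filter through 1 medium only, so their calls lend no support. Relative log expression factors, upper-quartile factors and DESeq2 gave 0 lower. With single libraries left out, comm, comm3 or both joined the test, so counts would cover a different set of genes and are not given. In each of those runs the log2 fold changes of the 6 higher genes stayed above 0, and that of beat-Ia stayed below 0. Of all tested genes, 742 were higher and 942 lower. Total counts gave 335 higher, relative log expression factors 178 lower, upper-quartile factors 547 lower and DESeq2 89 lower, and leaving out single libraries, 650 to 781 were higher and 530 to 938 lower. By construction the scalings differ in the library sizes and shift all values together.

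With a replicate block, the log2 fold change of comm2 was 4.47, 2 guidance genes were lower, as drl was added, and 751 genes were higher and 1004 lower. No source says that libraries of the same replicate number share a culture or day. Their deviations correlated at 0.284 over 1756 genes. Depth limits comm and comm3, with 3 and 2 reads in Schneider's medium.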
